A study of Mus musculus with 2 samples.

Results

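The transcripts described here are those of 10 genes that serve secretion by the lung epithelium. Sftpc, Sftpb, Sftpa1 and Sftpd are surfactant protein genes, and Scgb1a1, Scgb3a1 and Scgb3a2 are secretoglobin genes. Napsa, Lamp3 and Abca3 serve surfactant processing and storage. The 10 genes were chosen by name, as a look at epithelial RNA among sorted macrophages. They are 10 of 22180 genes that carried a feature with a single symbol. The samples were alveolar macrophages, which live in the air spaces of the lung. They had been isolated by flow sorting from the lungs of 8 to 10 week old mice. There were 2 arrays: 1 from mice labelled Lysm-CreSsu72fl/fl, called the array labelled Ssu72fl/fl here, and 1 from Lysm-Cre mice. Both groups carried the Cre recombinase of the lysozyme 2 locus, which is used to target myeloid cells. The first also carried the floxed allele of Ssu72, a phosphatase gene of RNA polymerase II. In which cells of these lungs Cre acted, epithelial ones included, was not tested. The labels and protocols name no strain, sex, number of mice per array or sorting markers. A single array stood for each genotype, so differences have no replicate check, carry no p-value or SD, and are limited in precision by the number of arrays.

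Surfactant is a film of lipids and proteins that lowers surface tension in the alveoli. Alveolar type 2 cells make it, store it in lamellar bodies and secrete it, and alveolar macrophages take it up and degrade it, so epithelial and macrophage genes meet in the turnover of the same material. Club cells of the conducting airways secrete secretoglobins into the airway lining. In mouse lung these transcripts are known mainly as epithelial ones.

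The deposited values, taken as log2 because of their range, ran from 4.23 to 13.5 over 33793 features. Their medians were 4.66 on the array labelled Ssu72fl/fl and 4.65 on the Lysm-Cre array. The median of all values on both arrays, 4.65, served as a floor for background signal: 13015 genes exceeded it on 1 array or both and were compared. Each gene is represented by its feature with the highest mean, and each of the 10 had only 1 feature. Signals depend on the probes as well as on the RNA, so ranks order signals and are no order of transcript abundance. The targeted gene, Ssu72, read 4.998 on the array labelled Ssu72fl/fl and 4.862 on the Lysm-Cre array, a difference of 0.14, so it was not lower where the label says so, and directions rest on the labels alone. Where its probes lie relative to the floxed part of the gene is not known here, so this value may not bear on the deletion. The arrays also differed by level: among 856 compared genes with a mean above 6, 77% were lower on the array labelled Ssu72fl/fl, against 51.9% of all genes compared. Beside the differences of the surfactant and airway secretory genes stands therefore the median difference of the 200 compared genes nearest in mean level, with their robust SD (scaled median absolute deviation), called the spread; it is scatter between genes, not between animals.

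Among the surfactant proteins, Sftpc had by far the highest signal. Sftpc encodes SP-C, a small hydrophobic protein that stabilises the surfactant film and is the classic transcript of type 2 cells. It read 8.35 on the array labelled Ssu72fl/fl and 8.71 on the Lysm-Cre array. Both values lay more than 3 log2 units above the floor (3.70 and 4.06). By the mean of both arrays Sftpc ranked 74 among all genes (percentile 99.7), and 36 among the 18987 protein-coding ones. Its rank hardly differed between the arrays, at 78 on the array labelled Ssu72fl/fl and 77 on the Lysm-Cre array. The genes next to it in mean signal were the small RNA genes Scarna2 and Snora74a above and Mir181d and Snord42b below. The nearest protein-coding genes, looked up after the values were seen, were H2-Eb1, an MHC class II chain, above it and Plet1, a surface gene of alveolar macrophages, below it.

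Sftpb and Sftpa1 had much weaker signals, which were still in the top 5% of genes. Sftpb encodes SP-B, the hydrophobic protein without which the surfactant film does not form. It read 5.93 on the array labelled Ssu72fl/fl and 6.25 on the Lysm-Cre array, and ranked 740 by the mean. Sftpa1 encodes SP-A, a collectin that binds microbes and surfactant lipids. It read 5.74 on the array labelled Ssu72fl/fl and 6.05 on the Lysm-Cre array, and ranked 992. Sftpd, the gene of the other surfactant collectin, SP-D, read 5.27 on the array labelled Ssu72fl/fl and 5.33 on the Lysm-Cre array, with rank 2779 (percentile 87.5). All 4 surfactant protein genes were thus above the floor on both arrays.

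The secretoglobins were divided between 1 strong signal and 2 near background. Scgb1a1, the main secretory protein of club cells, read 7.99 on the array labelled Ssu72fl/fl and 8.02 on the Lysm-Cre array. Its mean ranked 113 among all genes (percentile 99.5) and 51 among protein-coding genes, between Ddx5, an RNA helicase gene, and Cd9, a tetraspanin gene of alveolar macrophages. On the array labelled Ssu72fl/fl it ranked 95, against 130 on the Lysm-Cre array. Scgb3a1, a secretoglobin of the larger airways, read 4.85 on the array labelled Ssu72fl/fl and 4.69 on the Lysm-Cre array. It was 0.20 above the floor on the first and 0.042 above it on the second, and ranked 9037. Scgb3a2, a secretoglobin of club cells, read 4.65 and 4.61 in the same order, both just below the floor, so it was the one gene of the 10 that was not compared. Its rank was 12711, in the lower part of the list of all genes (percentile 42.7).

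Of the genes that process and store surfactant, Napsa had the clearest signal. Napsa encodes napsin A, an aspartic protease that trims the SP-B precursor. It read 5.32 on the array labelled Ssu72fl/fl and 5.47 on the Lysm-Cre array, with rank 2284 (percentile 89.7). Abca3, the transporter that loads lipid into lamellar bodies, read 4.74 on the array labelled Ssu72fl/fl and 4.94 on the Lysm-Cre array. Lamp3, a membrane protein of lamellar bodies that mature dendritic cells also express, read 4.76 on the array labelled Ssu72fl/fl and 4.70 on the Lysm-Cre array. Abca3 ranked 7682 and Lamp3 10143, and both lay within 0.29 of the floor on both arrays.

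**Figure D1:**
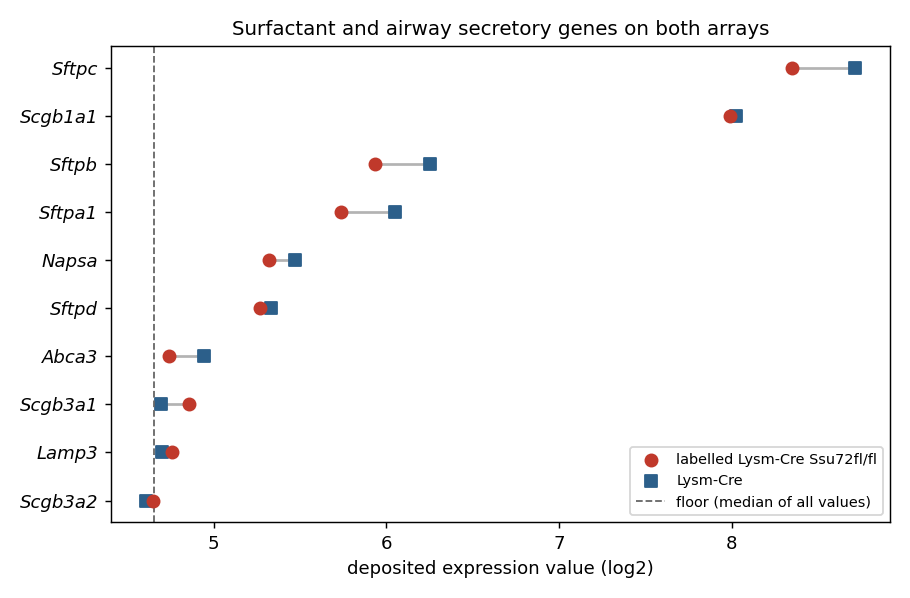
Deposited expression values, taken as log2 (horizontal axis), of the 10 genes, in order of their mean. Red circles are the array labelled Lysm-Cre Ssu72fl/fl and blue squares the Lysm-Cre array, 1 array each. The dashed line is the floor at 4.65. Sftpc and Scgb1a1 stand near 8 and above, and Abca3, Scgb3a1, Lamp3 and Scgb3a2 lie at the floor or within 0.29 of it.

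**Figure D2:**
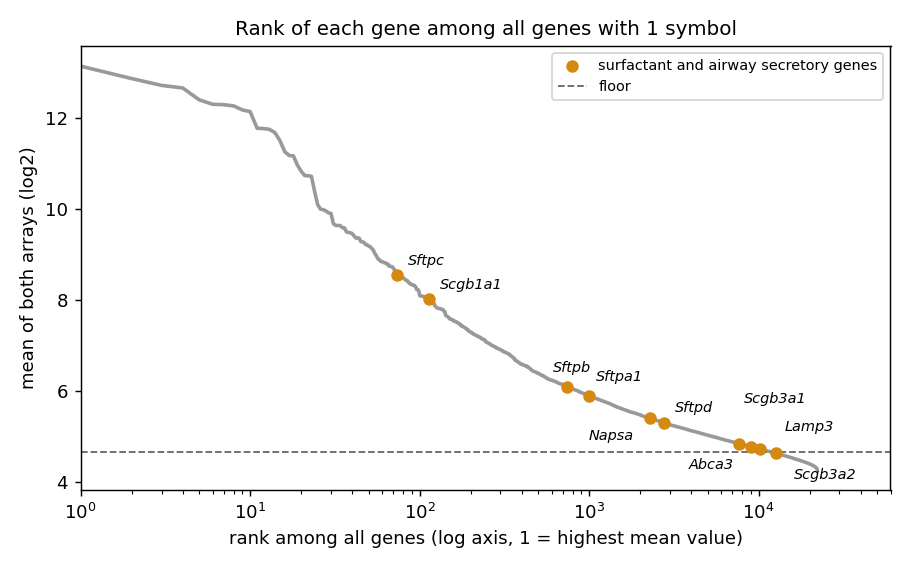
Mean log2 value of both arrays (vertical axis) against rank among 22180 genes (horizontal log axis, 1 is the highest), with the 10 genes marked on the curve of all genes; the dashed line is the floor. Sftpc (rank 74) and Scgb1a1 (rank 113) are followed by Sftpb (740) and Sftpa1 (992), and the last of the 10 is Scgb3a2 (12711).

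A list of 25 genes typical of organs other than lung, such as Alb and Ins2, gave a range of signal without lung epithelium. Its 22 genes with a feature reached at most 5.16 on the array labelled Ssu72fl/fl and 5.13 on the Lysm-Cre array, the highest by mean being the synapsin gene Syn1, the muscle creatine kinase gene Ckm and the apolipoprotein gene Apoa1. Of the 10 genes, 6 were above that range on both arrays: Sftpc, Scgb1a1, Sftpb, Sftpa1, Napsa and Sftpd. The same was true of 3257 genes in all, 14.7% of 22180. Abca3, Scgb3a1, Lamp3 and Scgb3a2 lay inside the range.

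Most alveolar macrophage markers had signals below those of the strongest epithelial transcripts. Of 23 macrophage markers with a feature, 20 ranked below Sftpc, 19 below Scgb1a1 and 7 below Sftpb. The markers with the highest signals were Lyz2 (9.74 on the array labelled Ssu72fl/fl, 10.2 on the Lysm-Cre array), the lysosomal protease gene Ctsd and the chitinase-like gene Chil3. The macrophage list had a median mean level of 7.06 with 19 of its 23 genes in the top 5%. It was chosen with earlier results of these data known, so its levels are no independent check of the labelled cell type. All 23 were above the floor on at least 1 array. Outside the top 5% were Siglecf, Fabp4, Fabp5 and Ctsk. Siglecf read 5.09 on the array labelled Ssu72fl/fl and 5.18 on the Lysm-Cre array, and Fabp4 5.24 and 5.06 in the same order. The lower value of each lay inside the range of the genes of other organs on that array.

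Other epithelial transcripts had much lower signals than Sftpc and Scgb1a1. The pan-epithelial adhesion gene Epcam, which marks type 2 and club cells, read 4.43 on the array labelled Ssu72fl/fl and 4.44 on the Lysm-Cre array, below the floor on both. Of 19 general epithelial genes with a feature, 10 were not above the floor on either array and none was in the top 5% (median mean level 4.57). On both arrays 4 of the 19, Krt8, Cldn3, Foxa2 and Cdh1, were above the range of the genes of other organs. Their highest signals were those of the keratin gene Krt8 (5.45 on the array labelled Ssu72fl/fl, 5.58 on the Lysm-Cre array), the claudin gene Cldn3 and the transcription factor gene Foxa2. Nkx2-1, the homeodomain factor that drives surfactant genes, read 4.72 on both arrays. Cyp2f2, a cytochrome P450 gene of club cells, read 4.79 on the array labelled Ssu72fl/fl and 4.95 on the Lysm-Cre array. Its mean, 4.87, was the median of the 19 club cell markers with a feature. The strongest of those markers, Cbr2, read 5.95 on the array labelled Ssu72fl/fl and 6.23 on the Lysm-Cre array.

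The 22 further type 2 cell markers had a median mean level of 4.83, and 1 was in the top 5%. Their strongest signals came from Cebpa, a transcription factor gene, the protease gene Ctsh and the chemokine gene Cxcl15; Cebpa and Ctsh are also expressed by macrophages. Medians were 4.87 for 19 club cell markers, 4.78 for 17 goblet and gland cell markers, 4.58 for 17 ciliated cell markers and 4.91 for 17 type 1 cell markers. The strongest of these were Cbr2, Selenbp1 and Aldh1a1, enzymes of club cells; Tff1, Foxa3 and Lypd2 of goblet cells; Tppp3, Mcidas and Foxj1 of ciliated cells; and Akap5, Igfbp2 and Ager, the last a receptor of type 1 cells. Endothelial markers, led by Epas1, Cdh5 and Ramp2, had a median of 4.91, and those of fibroblasts and smooth muscle, led by Inmt, Acta2 and Col1a1, one of 4.75. Against these, the 10 surfactant and airway secretory genes had a median mean level of 5.35, with 4 in the top 5%. The top 5% also held 3 of the 19 club cell markers and 2 of the 17 type 1 cell markers. It held 1 goblet and gland cell marker and 1 of fibroblasts and smooth muscle, but no ciliated or endothelial one. What share of the sorted cells was epithelial was not tested: in a bulk sample, fewer cells of a type and less RNA per cell cannot be told apart.

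**Figure D3:**
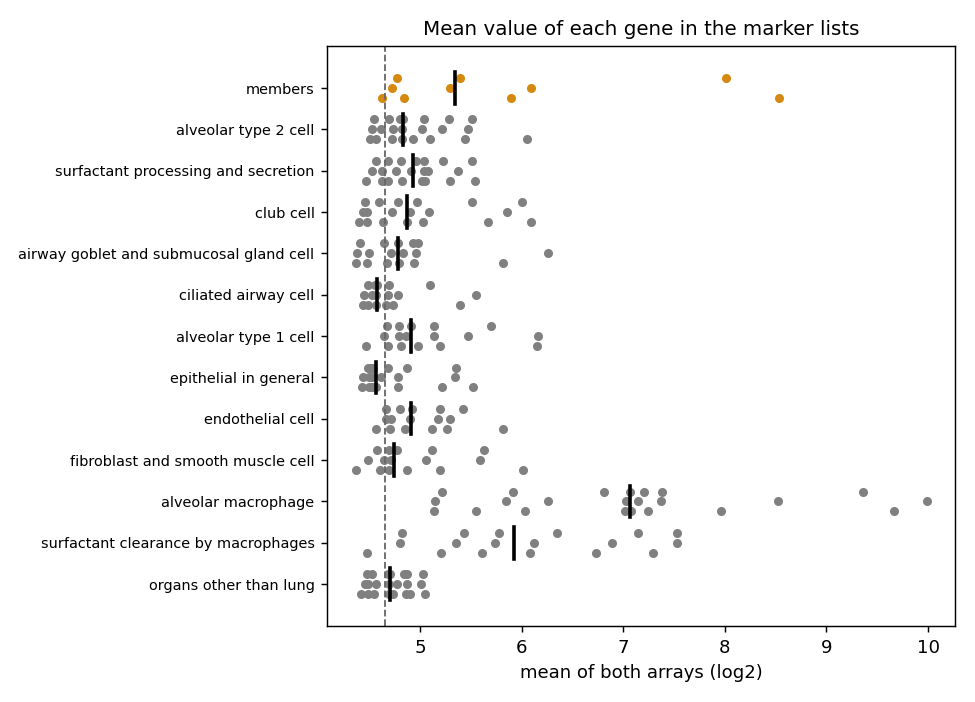
Mean log2 value of both arrays (horizontal axis) for each gene with a feature in the 10 surfactant and airway secretory genes ("members", orange) and in 12 marker lists (grey); black bars are medians, the dashed line is the floor, and the vertical offset within a list only separates points. Alveolar macrophage markers have a median of 7.06, and Sftpc and Scgb1a1 lie among them, above every gene of the other epithelial lists.

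No gene of the 10 differed 2-fold between the arrays. Over all genes compared, 0.0845% were lower by 2-fold or more on the array labelled Ssu72fl/fl and 0.0307% higher, or 11 and 4 genes. Quantile normalization turned this split round, with 1 gene lower and 13 higher, and so did removal of the level trend, with 1 and 11. Of the 9 genes compared, 7 were lower on that array and 2 were higher. Their differences ran from -0.36 to 0.16, and the median was -0.15. All genes compared had a median of -0.0068, with 51.9% lower. Set against the 200 genes nearest in level, 5 of the 9 lay below the median of those genes and 4 above it. In 3 of the 9 the distance was larger than the spread, as it was for 32.4% of all genes compared.

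Sftpc was lower on the array labelled Ssu72fl/fl by a difference of -0.36, or 0.778 times the Lysm-Cre signal. The 200 genes nearest in level, whose means ran from 7.17 to 9.91, had a median of -0.44 with a spread of 0.28, so Sftpc lay within the spread of genes of strong signal. Sftpb (-0.32) and Sftpa1 (-0.31) had almost the same difference as each other, against medians of -0.16 and -0.12 and spreads of 0.31 and 0.26 for genes of their level. Both were within those spreads. Sftpd differed by -0.063, against a median of -0.048 and a spread of 0.17.

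Scgb1a1 was nearly equal on both arrays. Its difference was -0.033, against a median of -0.44 and a spread of 0.29 for genes of its level, a distance of 0.41. Those 200 genes, like the ones nearest to Sftpc, include small RNA genes such as Scarna2 (-0.39). The protein-coding genes next to Scgb1a1 in mean signal, Ddx5 and Cd9, differed by -0.27 and -0.34. Whether the distance would hold against protein-coding genes alone was not tested. The difference of Sftpc was lower than that of Scgb1a1 by 0.33. The spreads of 0.28 and 0.29 are each for single genes, so they understate the scatter of a gap between 2 genes. Scgb3a1 was higher on the array labelled Ssu72fl/fl by 0.16, more than the spread of 0.12 around a median of 0.019, but at signals close to the floor. With the level trend removed, Scgb1a1 stood at 0.42 and Sftpc at 0.073, both then higher on the array labelled Ssu72fl/fl, so the direction of these 2 genes depends on the scaling.

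Abca3 differed by -0.20 against a median of -0.0016 and a spread of 0.12, and Napsa by -0.15 against -0.023 and a spread of 0.23. Lamp3 was higher on the array labelled Ssu72fl/fl by 0.059, against a median of 0.0036 and a spread of 0.10. Abca3 was the third gene, with Scgb1a1 and Scgb3a1, whose distance from genes of its level exceeded the spread. Only Scgb1a1 of these 3 had a signal outside the range of the genes of other organs.

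**Figure D4:**
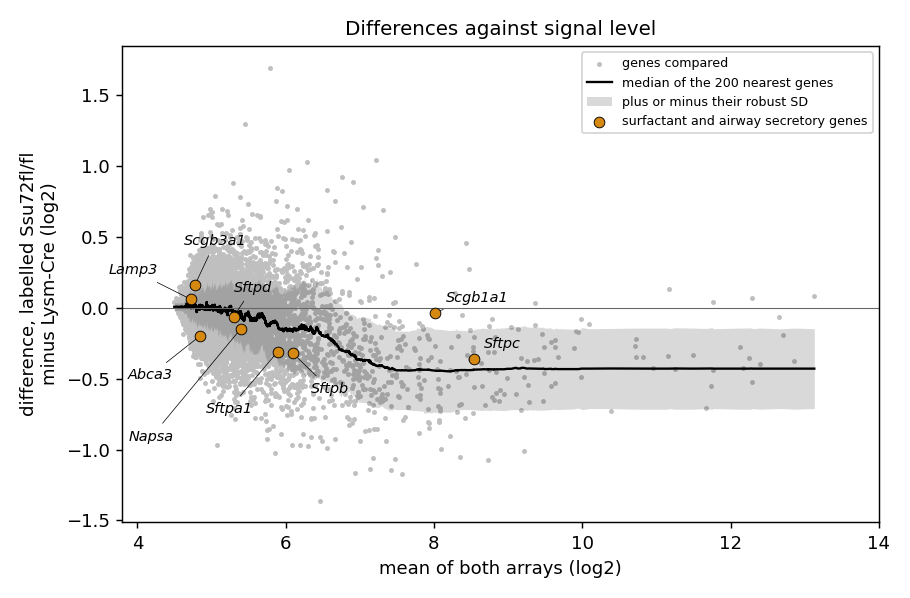
Difference (log2, vertical axis), array labelled Ssu72fl/fl minus Lysm-Cre array, against the mean of both arrays (log2, horizontal axis) for 13015 compared genes (grey), the median of the 200 nearest genes (line) and their robust SD (band), with the 9 compared surfactant and airway secretory genes in orange. Sftpc (-0.36) lies in the band, near the median of -0.44, and Scgb1a1 (-0.033) above the band.

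Sftpb and Sftpa1 are shown with the sequence before their starts, because they had like differences, though both within the spread. Scgb3a1 is shown because it had the highest difference of the 9 genes compared (0.16), at signals close to the floor. Lamp3, which was also higher on the array labelled Ssu72fl/fl (0.059), is not shown. Nor is Abca3, although its difference of -0.20 lay further from genes of its level than the spread of 0.12. Whether these sequences bear on the differences was not tested. RefSeq promoters of build GRCm38.p6 were found for 5 of the 10 genes: Sftpb, Sftpa1, Scgb3a1, Lamp3 and Abca3. The 250 bases before the start follow, 5′ to 3′ and on the plus strand, at chr6:72304360-72304609 for Sftpb, chr14:41131538-41131787 for Sftpa1 and chr11:49663345-49663594 for Scgb3a1. Capitals mark the letters CTCAAG on either strand, a core that NKX2-1 is known to bind.
Sftpb: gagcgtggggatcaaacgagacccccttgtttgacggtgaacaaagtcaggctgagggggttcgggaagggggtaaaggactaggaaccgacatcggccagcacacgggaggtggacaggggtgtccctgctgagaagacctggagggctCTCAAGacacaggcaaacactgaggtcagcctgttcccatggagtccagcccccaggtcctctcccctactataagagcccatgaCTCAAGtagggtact
Sftpa1: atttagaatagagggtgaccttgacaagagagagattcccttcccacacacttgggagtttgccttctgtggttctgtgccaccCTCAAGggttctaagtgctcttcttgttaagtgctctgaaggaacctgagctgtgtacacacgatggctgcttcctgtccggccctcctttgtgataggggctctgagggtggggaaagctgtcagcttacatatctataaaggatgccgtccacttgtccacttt
Scgb3a1: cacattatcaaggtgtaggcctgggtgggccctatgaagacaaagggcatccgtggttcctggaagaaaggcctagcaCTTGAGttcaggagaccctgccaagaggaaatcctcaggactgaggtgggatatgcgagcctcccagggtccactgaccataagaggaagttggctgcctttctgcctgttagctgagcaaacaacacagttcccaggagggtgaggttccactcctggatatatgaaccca
The letters CTCAAG stood 2 times in the Sftpb window, the nearer one 15 to 10 bases before the start, and once each in those of Sftpa1 and Scgb3a1, 166 to 161 and 172 to 167 bases before it. They were in neither the Lamp3 nor the Abca3 window, so the 3 windows shown are the 3 of 5 that held them. Of 27025 promoters of the same length, 13.6% held them. The letters TATAA, searched on both strands too, stood 30 to 26 bases before the start of both Sftpb and Sftpa1, in no window of the other 3 genes, and in 23.5% of all promoters. These are matches of letters, with no measurement of binding.

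The type 2 cell genes that were not among the 10 were mostly lower on the array labelled Ssu72fl/fl. Of 17 further type 2 markers compared, 14 were lower and 3 higher (median -0.11), against 51.9% lower and -0.0068 over all genes compared. Scd1, a fatty acid desaturase gene that macrophages express as well, was lowest (5.19 on the array labelled Ssu72fl/fl, 5.69 on the Lysm-Cre array, -0.51), and Etv5, a transcription factor gene, highest (0.15). Of these 17 genes, 15 were also lower than the median of the genes nearest in level, which by definition has as many of those genes above it as below. Cebpa (-0.47) and Ctsh (-0.094) are, like Scd1, also expressed by macrophages. The 3 higher were Etv5, Lgi3 and Nkx2-1, the last by only 0.0071. Whether epithelial or macrophage RNA was lower was not tested. In the list of surfactant processing and secretion, which shares 3 genes with the type 2 list, 11 of 17 were lower (median -0.058), from the lipid flippase gene Atp8a1 (-0.25) to the lipid transfer gene Stard10 (0.22). None of either list differed 2-fold.

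Among airway markers, more club and goblet cell genes were higher than lower on the array labelled Ssu72fl/fl. Of 13 club cell markers compared, 8 were higher and 5 lower (median 0.016), from Nupr1, a stress response gene (0.39), and Aldh1a1, an aldehyde dehydrogenase gene (0.38), to Fmo2, a monooxygenase gene (-0.33). Of 12 goblet and gland cell markers, 9 were higher and 3 lower (median 0.077). They ran from Lypd2 (0.54) and the trefoil factor gene Tff1 (0.51) to Clca1 (-0.18). Tff1 read 6.51 on the array labelled Ssu72fl/fl and 6.01 on the Lysm-Cre array. Muc5b, a mucin gene of airway secretory cells, read 4.86 on the array labelled Ssu72fl/fl and 4.70 on the Lysm-Cre array (0.16), again close to the floor. Muc5ac, another mucin gene of that list, differed by only 0.014, with its Lysm-Cre value below the floor. Ciliated cell markers were divided, 4 lower and 4 higher, and type 1 cell markers 7 lower and 9 higher. Over all genes compared, 48.1% were higher. The genes of organs other than lung leaned the same way as the club cell markers, with 9 higher and 5 lower (median 0.029). Whether the alveolar and airway lists differ from each other was not tested, and most of their signals lay near the floor. Whether the signals of the airway lists came from airway cells or from the macrophages was not tested either.

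Lists of the macrophages themselves were lower, as were strong signals in general. Of 23 alveolar macrophage markers 22 were lower (median -0.34), from Fcer1g (-0.60) to Fabp4 (0.19), the last the only one higher. Of 17 compared genes with which macrophages clear surfactant, 16 were lower (median -0.21). These counts stand beside 51.9% lower over all genes compared and 77% at mean levels over 6. Set against genes of their level, 15 of the 23 and 9 of the 17 were lower. Abcg1, a lipid exporter gene, and Csf2ra, the receptor subunit for GM-CSF, without which surfactant accumulates, had the strongest signals of that list (each 7.39 on the array labelled Ssu72fl/fl and 7.66 on the Lysm-Cre array), followed by the lipid droplet gene Plin2. The lysosomal lipase gene Lipa was lowest (-0.79), and the lipoprotein receptor gene Scarb1 highest (0.12). With the level trend removed, the medians were -0.065 and -0.0036, beside -0.022 for the 9 surfactant and airway secretory genes.

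**Figure D5:**
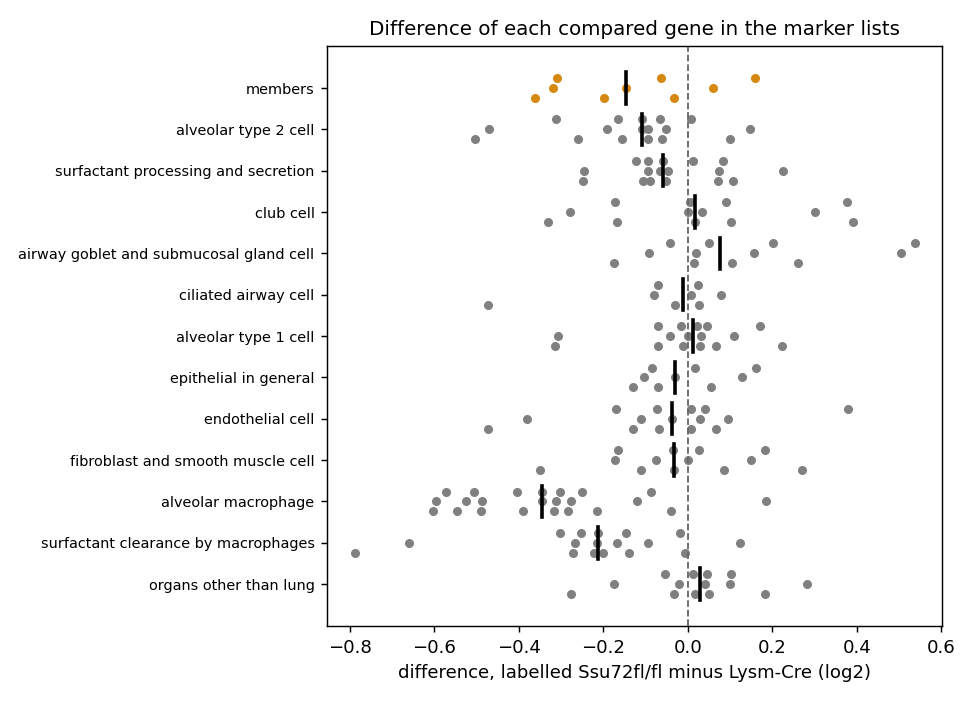
Difference (log2, horizontal axis), array labelled Ssu72fl/fl minus Lysm-Cre array, for each compared gene of the 10 ("members", orange) and of 12 marker lists (grey); black bars are medians, the dashed line is 0, and the vertical offset within a list only separates points. The macrophage lists have the lowest medians (-0.34 and -0.21), and goblet and gland cell markers the highest (0.077).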

How the data were processed

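Alveolar macrophages were measured on 2 arrays, 1 per genotype; per the labels' protocols, biotin-labelled cRNA was prepared from 6 ug of RNA. The authors deposited 1 expression value per feature, taken here as log2 because of the range of the values. MAS5 is named in the submitters' processing notes, with no version or role. For background correction, normalization and offset, no source used here gives a method; an offset would compress differences at low signal.

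Of 33793 features, 23521 carried 1 gene symbol in the platform annotation, 1814 several and 8458 none. Of the first, 23328 were matched by Entrez identifier to RefSeq symbols (GRCm38.p6). Each gene took the feature with the highest mean. All values of both arrays gave the floor, their 50th percentile; values below it were set to it, and 2081 of 13015 compared genes have only a bound. The level trend was a lowess curve (span 0.3) on medians of level bins at least 0.05 wide with at least 10 features. No test was possible with 1 array per genotype. The procedure was tried on simulated data with all levels raised away from the floor, so this does not cover signals near the floor. Python 3.11.15, pandas 2.3.3 and statsmodels 0.14.6 were used.

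The 10 genes and the marker lists were chosen with earlier results of these data known. Named genes were the 10, Ssu72, the 3 strongest signals of each list with its lowest and highest difference, and 4 rank neighbours of Sftpc; other genes named were chosen after their values were seen. Alternatives tried were quantile normalization, median centring, removing the level trend, floors at the 25th and 75th percentiles or none, other choices of features, and a threshold of 1.5-fold.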

Additional observations from a re-analysis of the deposited data

How the results depend on the processing

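No paired analysis was possible because each genotype had 1 array. The count of lower genes among the surfactant and airway secretory genes compared was 7 with the deposited values and 5 after quantile normalization or removal of the level trend, of 9 compared each time. With the floor at the 75th percentile only 6 were compared and all 6 were lower. Their median ran from -0.23 (those 6 genes) to -0.021 (quantile normalization) over the alternatives and stayed below 0. None of them reached 2-fold in any alternative, or 1.5-fold with the deposited values. Of the 10, 4 were in the top 5% of signals in each setting that recomputed ranks, except 3 when features with several symbols were used as well. The differences of 2 genes changed sign: Sftpc was 0.039 after quantile normalization and 0.073 with the level trend removed, and Scgb1a1 was 0.40 and 0.42; both settings take out the difference between the arrays at strong signals. Adding features with several symbols, which ranks more genes, moved Sftpc to rank 120 and Scgb1a1 to rank 174.

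Over all genes, 15 were at least 2-fold different, 26.7% of them higher. There were 42 when features with several symbols were used, 219 at 1.5-fold, and 5 among protein-coding genes, an alternative added after the values were seen. After quantile normalization 92.9% of the genes called were higher, and with the level trend removed 91.7%. Scgb3a2 could be compared only with a lower floor (25th percentile) or none, at 0.039 in both. Signal over background limits Abca3, Scgb3a1 and Lamp3, which a floor at the 75th percentile left out; their small differences cannot be told from probe scatter with 1 array per genotype.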

Other observations

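The other secretoglobin genes on the array, looked at after the values were seen, gave mostly background signal, with 1 exception. Of 23 secretoglobin genes with a single-symbol feature, 20 were not among the 10 described above, most of them of the Scgb1b and Scgb2b groups, which encode androgen-binding proteins of mouse saliva and tears. Their median mean level was 4.42, and 15 of the 20 were at or below the floor on both arrays. Scgb1b3 stood apart: one of its features read 7.46 on the array labelled Ssu72fl/fl and 7.60 on the Lysm-Cre array, rank 161 by the mean. Its second feature read 4.77 on the array labelled Ssu72fl/fl and 4.51 on the Lysm-Cre array, so the 2 features of this gene disagree in level and in direction. The genes of these groups are close copies of each other, and 5 further features carried several secretoglobin symbols, with mean levels from 4.64 to 5.37. The assignment of the strong feature to Scgb1b3 is therefore uncertain.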
